A study of Rattus norvegicus with 45 samples.

Results

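The comparison concerns the gastrocnemius, a mixed calf muscle of mostly fast fibres, of female SD rats that did not run. Its 7 arrays, of 45 in the series, were chosen by title. Of these, 3 came from rats given cerivastatin at 1.0 mg/kg/day and 4 from rats given the vehicle, a methylcellulose solution, each for 14 days, and the replicates are biological per the series' design text. The series also holds unexercised gastrocnemius at 0.1 and 0.5 mg/kg/day (4 arrays each), gastrocnemius of rats that ran on a treadmill for 20 min/day at 20 m/min on 5 days/week, and soleus. Each treated array is given separately, because the arrays differed in response. Signals are the deposited MAS5 values, an arbitrary brightness per probe set, and the 3 treated signals are always listed from replicate 1 to replicate 3 and the 4 vehicle signals from replicate 1 to replicate 4. A change is the mean of log2(signal + 12.4) at 1.0 mg/kg/day minus that in vehicle, ± its standard error from limma (n = 3 and 4), and a gene rose or fell where limma's Benjamini-Hochberg adjusted p was under 0.05. The shift of 1 array is its log2 value minus the vehicle mean.

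Cerivastatin is a statin, an inhibitor of HMG-CoA reductase, the enzyme that makes mevalonate. Mevalonate is the precursor of cholesterol and of the isoprenoid groups that anchor small GTPases such as the Ras and Rab families to membranes, and that are used to make ubiquinone, dolichol and haem a. Cells short of sterols process the SREBP transcription factors, which raise the genes of the sterol pathway. Muscle injury, with fibre necrosis, entry of macrophages and division of satellite cells, is a known side effect of the class, and cerivastatin was withdrawn from the market because of it.

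The labelled tissue was checked against fibre-type genes of the vehicle arrays. Myh4, the myosin heavy chain of the fastest fibres, had signals of 52705, 57455, 74564 and 52135 in vehicle gastrocnemius, against 62.2 to 32544 in the 4 vehicle soleus arrays. Pvalb, parvalbumin, which buffers calcium in fast fibres, had 43613, 73279.9, 61340.0 and 65176 in vehicle gastrocnemius, against 181.5 to 24000.5 in vehicle soleus. The slow-fibre genes varied among the vehicle animals: Tnnt1, slow troponin T, had 32028, 16042, 7360.2 and 6114, so that vehicle replicates 1 and 2 exceeded replicates 3 and 4. Vehicle replicate 4 had the highest median shift in the 47 matrix genes, 0.85, against -0.54 to 0.05 in the other 3 vehicle arrays. Of the fat cell genes, Adipoq, the fat cell hormone, was 1829 in vehicle replicate 4 and 76.2 to 118.3 in the other 3, while the 15 fat cell markers had median shifts of 0.32 in vehicle replicate 4 and 0.17 in replicate 1. The ratio of 5′ to 3′ probe signals, which falls as RNA breaks down, was 0.394 to 0.482 for actin in the treated arrays and 0.282 to 0.515 in the vehicle arrays, so the ranges overlapped. For Gapdh it was 0.688, 0.795 and 0.836 in the treated arrays and 0.745 to 0.874 in the vehicle arrays, so treated replicate 1 lay below every vehicle array.

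Treated replicate 3 stood apart from treated replicates 1 and 2. Over all 31042 probe sets that are not controls its log2 values correlated at 0.8945 and 0.8858 with those of treated replicates 1 and 2, and at 0.928 to 0.9413 with those of the vehicle arrays, while treated replicates 1 and 2 correlated at 0.9548. The vehicle arrays correlated with one another at 0.9183 to 0.9394. By this measure treated replicate 3 was about as close to them as they were to each other. Of 11684 tested genes, 4269 (36.5%) in treated replicate 1, 4523 (38.7%) in replicate 2 and 2005 (17.2%) in replicate 3 lay above all 4 vehicle arrays. Below all 4 vehicle arrays lay 3716 (31.8%), 3596 (30.8%) and 1964 (16.8%). An array no different from vehicle would also lie beyond all 4 for a share of genes. The shares of replicate 3 are therefore not counts of genes that moved in it. Genes that passed the test in all arrays together numbered 855 higher (7.32% of the genes tested) and 463 lower (3.96%). For the 855 higher genes the median shift was 2.01 in replicate 1, 2.07 in replicate 2 and 0.39 in replicate 3, and replicate 3 lay above every vehicle array for 382 of them (44.7%). For the 463 lower genes the median shifts were -1.38, -1.48 and -0.26, and replicate 3 lay below every vehicle array for 256 (55.3%). The scatter of the shifts shows the called genes close to the horizontal axis. Without replicate 3, 2132 genes were higher (18.2%) and 1513 lower (12.9%). Counts of list members without replicate 3 are to be read against these shares, as those with all arrays against 7.32% and 3.96%. The calls of the 855 and 463 genes used replicate 3, which favours genes that moved in it. For the 2132 genes, called without it, its median shift was 0.18. It lay above every vehicle array for 27.2% of them and below every one for 8.91%. For the 1513 genes its median shift was -0.10, with 30.8% below every vehicle array and 7.4% above. The same vehicle arrays took part in these calls.

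**Figure D1:**
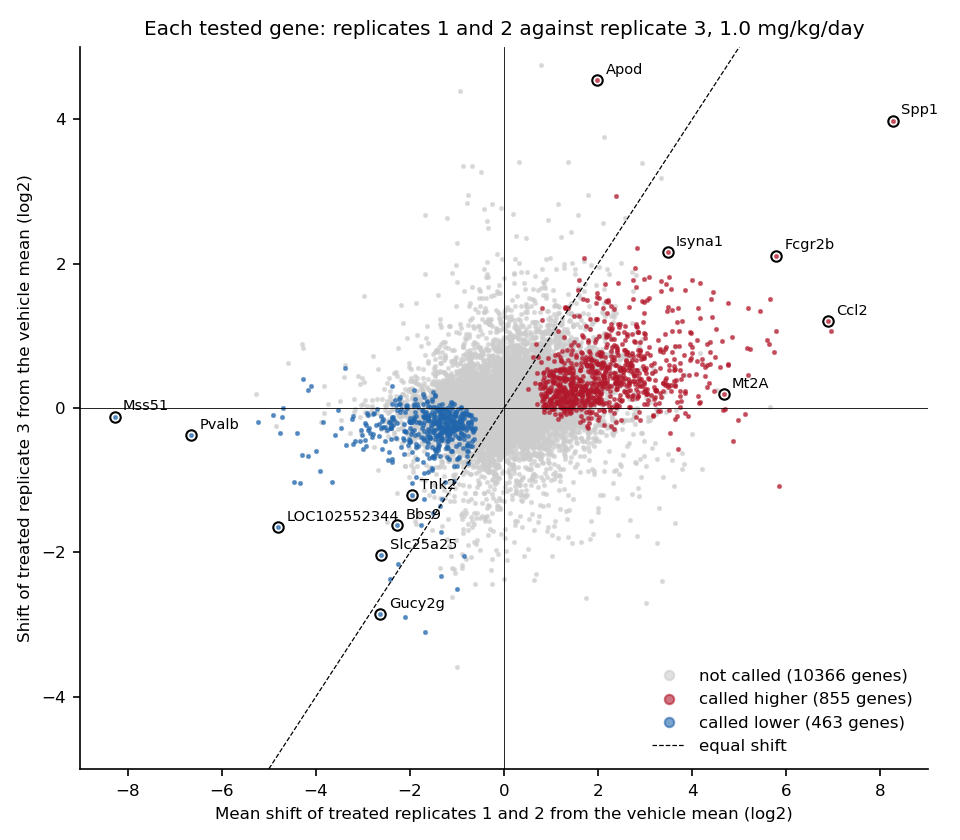
Each point is 1 of 11684 tested genes, with the mean shift of treated replicates 1 and 2 from the vehicle mean on the horizontal axis and the shift of treated replicate 3 on the vertical axis, both log2. The 855 genes called higher are red and the 463 called lower are blue; most lie nearer to the horizontal axis than to the dashed line of equal shift, and Spp1, Fcgr2b, Slc25a25 and Gucy2g are among those that moved in replicate 3 too.

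The calls rest on treated replicates 1 and 2. When replicate 1 was left out, 2 probe sets were higher and 3 lower, and when replicate 2 was left out, 1 was higher and 1 lower, against 1238 and 827 with all arrays (9.5% of the probe sets tested), so that nearly every change named here passed the test only with both. Without treated replicate 1 or 2, 0 members of the sterol, macrophage, cell-cycle, endoplasmic reticulum and fast-fibre lists passed. Leaving out vehicle replicate 1, 2 or 3 gave 487, 508 or 486 probe sets higher and 336, 233 or 247 lower. Osteopontin (Spp1) and Tnk2, a non-receptor tyrosine kinase also called ACK1, passed in either case. Spp1 changed by 6.20 (adjusted p = 0.0295) without replicate 1 and by 6.03 (adjusted p = 0.0477) without replicate 2. Tnk2 changed by -1.64 (adjusted p = 0.0295) and -1.53 (adjusted p = 0.0488). The spread came from all 30 gastrocnemius arrays, and on the 7 arrays alone no probe set passed, although 5299 of 21729 had an unadjusted p under 0.05, against 6057 in the fit on 30 arrays.

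Some called genes shifted in all 3 treated arrays. The genes named for this were chosen by their values in these arrays, so their shift in replicate 3 is a description and not a test. Spp1, which encodes a secreted adhesion protein made by activated macrophages and injured muscle, had signals of 22132, 28086 and 1269 in the treated arrays, against 53.7, 26.0, 140.1 and 101 in the vehicle arrays. All 3 treated arrays lay above all 4 vehicle arrays, replicate 3 by less (change 6.83 ± 0.91, adjusted p = 0.00104). Fcgr2b, the inhibitory receptor for IgG, had 5183, 4428 and 365 in the treated arrays, against 18.3, 174, 51.0 and 149 in the vehicle arrays (4.56 ± 0.72, adjusted p = 0.00418). Its highest vehicle signal was below the treated signal of replicate 3. Among the 1020 genes (8.73%) whose treated arrays all lay above the vehicle arrays, 382 (3.27%) also passed the test, and among the 873 (7.47%) that lay below, 255 (2.18%) passed. Named by the size of the shift in the array that moved least, the rises were Spp1, Fcgr2b, Timeless, Isyna1, Mboat1, Aldh1l2, Ssbp4, Tmem254, Phf19 and Fgl2. Isyna1, which makes inositol phosphate from glucose phosphate, had 943, 633 and 304 in the treated arrays, against 17.5, 27.9, 86.2 and 196 in the vehicle arrays (3.04 ± 0.78, adjusted p = 0.0218). Aldh1l2, a mitochondrial enzyme of folate metabolism, had 657, 663 and 270.4 in the treated arrays, against 15.8, 147, 30 and 202 in the vehicle arrays (2.66 ± 0.74, adjusted p = 0.0291). In both genes the vehicle arrays spread over a range of low signals, and replicate 3 lay between them and the other treated arrays. Fgl2, a prothrombinase of macrophages and endothelium, had 4229.6, 7717 and 2903 in the treated arrays, against 444, 1202, 549.5 and 1705 in the vehicle arrays (2.42 ± 0.69, adjusted p = 0.0316). Phf19, a partner of the Polycomb repressive complex, had 256, 164 and 109.7 in the treated arrays, against 14.0, 20.7, 24.7 and 19 in the vehicle arrays (2.50 ± 0.65, adjusted p = 0.0228), so its vehicle signals were close to the offset of 12.4, where a log2 change depends on the offset.

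Named in the same way, by the array that moved least, the falls were Slc25a25, Gucy2g, Bbs9, Tor3a, Ankrd16, Irx5, Col7a1, Slc28a1, Abcc8 and LOC102552344. This choice favours genes in which replicate 3 moved with the others. Slc25a25, a mitochondrial carrier that exchanges ATP-magnesium for phosphate, had 442, 370.3 and 606 in the treated arrays, against 2560.4, 4957, 2221 and 1455 in the vehicle arrays (-2.42 ± 0.56, adjusted p = 0.0151). The 3 treated animals were close to one another and all below the lowest vehicle array. Gucy2g, a membrane guanylate cyclase, had 14.6, 40.3 and 19.9 in the treated arrays, against 316, 174, 163 and 263 in the vehicle arrays (-2.70 ± 0.55, adjusted p = 0.0115). Bbs9, a subunit of the BBSome that carries proteins to cilia, had 357, 377 and 586 in the treated arrays, against 1035, 2581, 2205 and 1875 in the vehicle arrays (-2.06 ± 0.42, adjusted p = 0.0115). In both the treated arrays lay below every vehicle array and replicate 3 moved much like the others. Tor3a, a torsin ATPase of the endoplasmic reticulum, had 333, 259 and 308 in the treated arrays, against 807, 969.9, 749 and 929 in the vehicle arrays (-1.49 ± 0.42, adjusted p = 0.0309), with replicate 3 lower than replicate 1. Tnk2 had 311, 266 and 489 in the treated arrays, against 1224, 1290.2, 1054 and 1054 in the vehicle arrays (-1.71 ± 0.24, adjusted p = 0.00124). Abcc8, the sulfonylurea receptor of ATP-sensitive potassium channels, had 61.0, 69.5 and 93.3 in the treated arrays, against 297, 199.9, 317 and 175 in the vehicle arrays (-1.55 ± 0.49, adjusted p = 0.0438). Signals of Irx5, Slc28a1 and Ankrd16 in the treated arrays, from 4.1 to 37.6, were at a level where the offset limits the change.

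By the size of the change among genes whose groups did not overlap, the 12 largest rises also took in Akr1b8, Serpina3n, Chi3l1 and Cotl1. Akr1b8, an aldo-keto reductase that detoxifies lipid aldehydes, had 8629.5, 8368 and 468 in the treated arrays, against 20.6, 298, 223 and 322 in the vehicle arrays (4.28 ± 0.90, adjusted p = 0.0118). Chi3l1, a chitinase-like glycoprotein of macrophages, had 3880.5, 4794 and 160.3 in the treated arrays, against 155, 31.5, 80.1 and 84.4 in the vehicle arrays (4.04 ± 0.73, adjusted p = 0.00852). Cotl1, which binds actin in blood cells, had 7965, 6151 and 335 in the treated arrays, against 98.4, 262, 286 and 146 in the vehicle arrays (3.72 ± 0.69, adjusted p = 0.00852). In these 3 genes replicates 1 and 2 were many times the highest vehicle signal and replicate 3 was just above it. Serpina3n, a secreted protease inhibitor, had 2173, 19054 and 362 in the treated arrays, against 166, 114, 77.6 and 226 in the vehicle arrays (4.07 ± 1.10, adjusted p = 0.0258), with replicate 2 far above replicate 1. Among the 12 largest falls were C8h3orf18, Hlf, Fn3k and Wnk2. Hlf, a transcription factor of the circadian PAR bZIP family, had 106, 39.9 and 823 in the treated arrays, against 860.1, 1813, 1299 and 1167 in the vehicle arrays (-2.86 ± 0.61, adjusted p = 0.012). Fn3k, which removes sugar from glycated proteins, had 114, 60.5 and 872 in the treated arrays, against 982, 1086, 1079 and 1459 in the vehicle arrays (-2.52 ± 0.64, adjusted p = 0.0206). Wnk2, a kinase that regulates ion transport, had 986, 344 and 3922 in the treated arrays, against 5839, 5554, 5569 and 4576 in the vehicle arrays (-2.26 ± 0.69, adjusted p = 0.0388). In these 3 genes replicate 3 was below the lowest vehicle array, by less than the other treated arrays. C8h3orf18, an open reading frame, had 59.6, 50.3 and 1427 in the treated arrays, against 1674, 1764, 2161 and 1671 in the vehicle arrays (-3.29 ± 0.83, adjusted p = 0.0211).

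**Figure D2:**
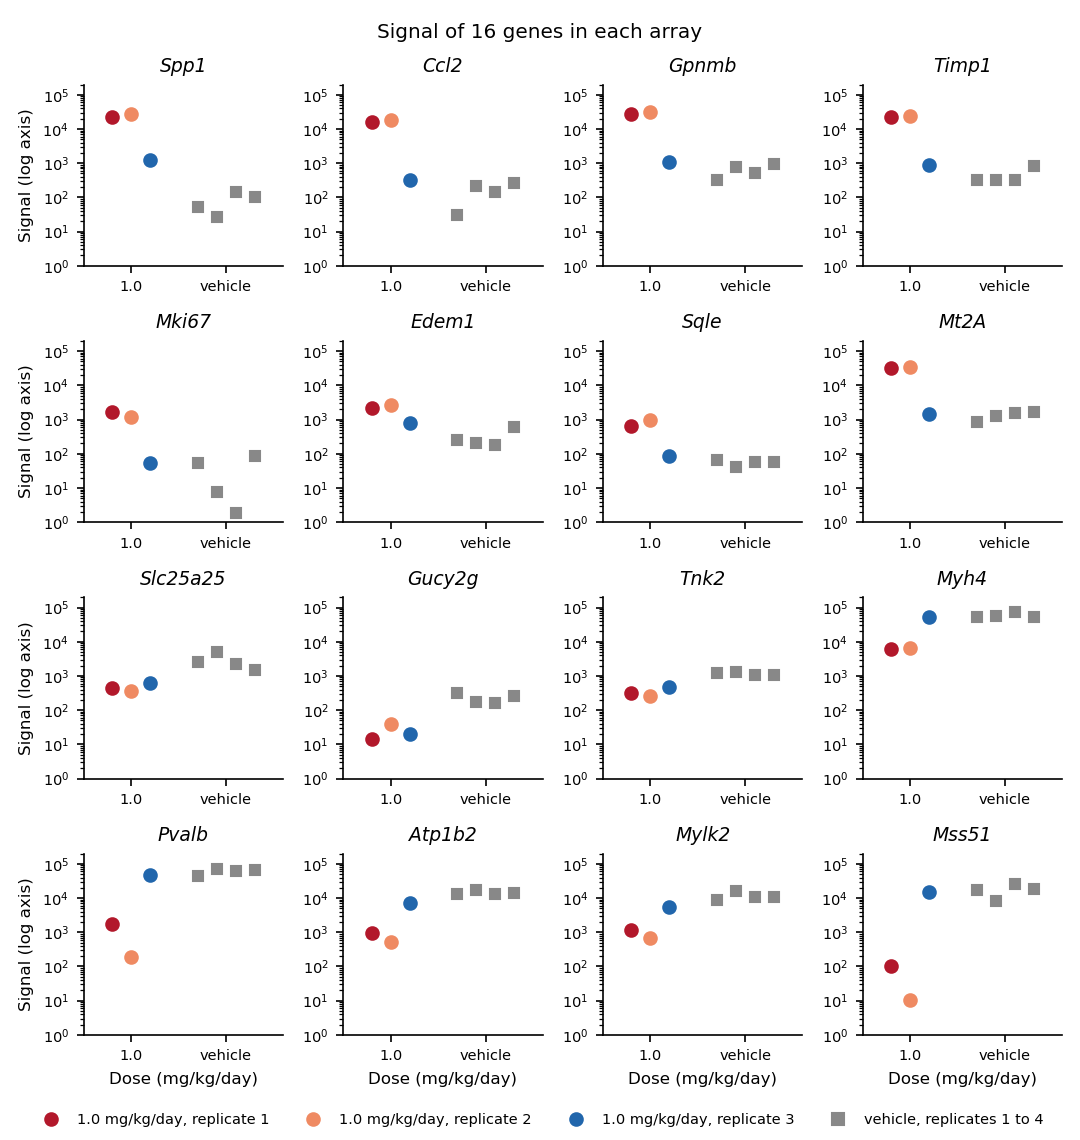
Signal (log axis) of 16 genes in the 3 arrays at 1.0 mg/kg/day (circles, coloured by replicate) and the 4 vehicle arrays (grey squares). Replicate 3 lies with the vehicle arrays for Mki67, Mt2A, Myh4, Pvalb and Mss51, between the groups for Spp1, Edem1 and Atp1b2, and with the other treated arrays for Slc25a25, Gucy2g and Tnk2.

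Of the sterol pathway 5 enzymes rose. Of 23 tested members of the sterol list, which includes the sensors, 6 rose (Insig1 among them) and 1, Insig2, fell (26.1% and 4.35%, against 7.32% and 3.96% of all genes tested), with a median change of 0.78 against 0.07 over all genes tested, and the median shifts of the 3 treated arrays were 0.71, 1.05 and 0.24. At the head of the pathway, Acat2, which joins acetyl-CoA units, had 752, 881 and 246 in the treated arrays, against 209, 182, 202 and 236 in the vehicle arrays (1.36 ± 0.41, adjusted p = 0.0383). Idi1, which isomerises the isoprene unit, had 1705, 1881 and 565 in the treated arrays, against 353, 354, 338 and 162 in the vehicle arrays (2.04 ± 0.42, adjusted p = 0.0116). In both, replicate 3 lay above every vehicle array by a smaller margin than the other treated arrays. The first enzyme committed to sterols, Fdft1, had a change of -0.38 ± 0.25 (adjusted p = 0.34), with 1009, 785 and 941 in the treated arrays, against 1128, 1183, 1437 and 1015 in the vehicle arrays. Sqle, squalene epoxidase, had 668, 994 and 85.4 in the treated arrays, against 63.5, 41.8, 58.6 and 57.2 in the vehicle arrays (2.60 ± 0.67, adjusted p = 0.0228). All 3 treated signals of Sqle were above vehicle, replicate 3 by little. Further along, Cyp51, lanosterol demethylase, had 3034, 3261 and 936 in the treated arrays, against 694, 714, 722 and 722 in the vehicle arrays (1.54 ± 0.36, adjusted p = 0.0147). Msmo1, which removes the next methyl groups, had 1918, 2275 and 717 in the treated arrays, against 473, 562, 526 and 476 in the vehicle arrays (1.50 ± 0.37, adjusted p = 0.0185). The 4 vehicle signals of Cyp51 spanned only 694 to 722, below each treated signal. Members that did not pass included Lss (1.06, adjusted p = 0.0589), Ebp (1.03, 0.0682), Dhcr7 (1.34, 0.151) and Fdps (0.56, 0.161). Without the unexercised 0.1 mg/kg/day array described at the end, 10 members of the list rose, and without treated replicate 3, 11.

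The sensors of the pathway moved in opposite directions. Insig1, which holds the SREBP escort protein in the endoplasmic reticulum and is itself an SREBP target, had 4894, 5434 and 664 in the treated arrays, against 617, 659, 762 and 544 in the vehicle arrays (2.01 ± 0.49, adjusted p = 0.0181). Insig2, its relative that SREBP does not raise, had 562, 662 and 1064 in the treated arrays, against 1121, 1399, 1244 and 1112 in the vehicle arrays (-0.72 ± 0.21, adjusted p = 0.0333). Replicate 3 lay within the vehicle range for Insig1 and below it for Insig2. Srebf1, which encodes the SREBP of fatty acid synthesis, had 505, 528 and 1480.1 in the treated arrays, against 2199.8, 3699, 2216 and 1550.3 in the vehicle arrays (-1.63 ± 0.44, adjusted p = 0.0255). Srebf2, which encodes the SREBP of sterol synthesis, changed by 0.16 ± 0.24 (adjusted p = 0.713). Srebf1 in replicate 3 lay just below its lowest vehicle value. In the fatty acid list of 16 members, 2 rose (12.5%, and 4 without replicate 3) and 1 fell, and replicate 3 had the highest median shift, 0.61 against 0.20 and 0.30. Acly, which supplies cytosolic acetyl-CoA, had 1601, 1761 and 1002 in the treated arrays, against 383, 446, 409 and 657 in the vehicle arrays (1.58 ± 0.43, adjusted p = 0.0274). Elovl1, an elongase of very long chains, had 2396, 2497 and 780.4 in the treated arrays, against 346, 403, 421 and 706 in the vehicle arrays (1.86 ± 0.45, adjusted p = 0.0169). For both, all treated arrays exceeded all vehicle arrays. Fasn, fatty acid synthase, had 938, 762 and 1829 in the treated arrays, against 128, 328, 182 and 709.7 in the vehicle arrays (1.95 ± 0.77, adjusted p = 0.0982), with replicate 3 above both other treated arrays.

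Genes that make or attach isoprenoids passed the test once, and Rab genes, whose products steer vesicle traffic, 6 times. Of 23 genes for prenyl transfer, ubiquinone and dolichol, 0 rose and 1 fell (1 and 4 without replicate 3), with a median change of 0.09, which was -0.06 after quantile normalization. The gene that fell was Coq2, which attaches the isoprenoid tail of ubiquinone, with 714, 409 and 1959 in the treated arrays, against 2152, 1854, 2010.4 and 2156 in the vehicle arrays (-1.28 ± 0.42, adjusted p = 0.0499). Ggps1, which makes geranylgeranyl diphosphate, changed by 0.25 ± 0.17 (adjusted p = 0.368). Among 32 Rab genes, 4 rose (12.5%) and 2 fell (6.25%), near the shares over all genes of 7.32% and 3.96%, and without replicate 3 the counts were 13 and 9. Rab31, Rab13, Rab1a and Rab11a rose by 1.59, 1.56, 0.81 and 0.77, and Rab4a fell by 0.71. Rab3a, a Rab of secretory vesicles, had 32.7, 117 and 848 in the treated arrays, against 988, 745, 828 and 924 in the vehicle arrays (-2.36 ± 0.57, adjusted p = 0.0176).

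**Figure D3:**
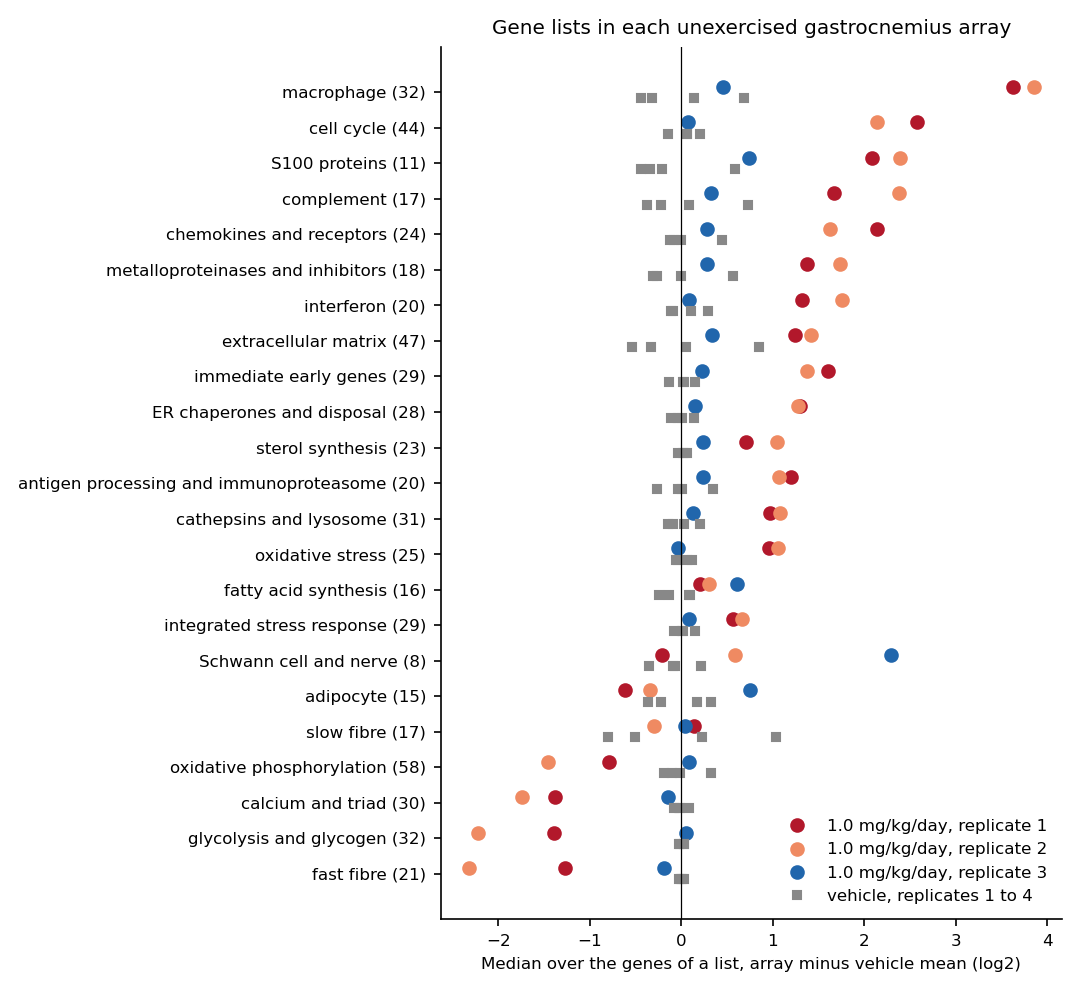
Median over the tested genes of a list (number in brackets) of each array's shift from the vehicle mean, log2, for the 3 arrays at 1.0 mg/kg/day (circles, above) and the 4 vehicle arrays (grey squares, below). Replicates 1 and 2 lie outside the vehicle range for most lists, from 3.62 and 3.85 for macrophage genes to -1.27 and -2.32 for fast-fibre genes; replicate 3 lies farthest from vehicle for Schwann cell genes, at 2.29.

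Macrophage genes had the highest share of rises among the lists. Of 32 tested markers 28 rose and 0 fell, with a median change of 2.61 and median shifts of 3.62, 3.85 and 0.46, where the vehicle arrays ran from -0.44 to 0.68. Their summed signal was 192270, 212260 and 20285 in the treated arrays and 9354 to 26952 in the vehicle arrays. In whole muscle, more cells of a type and more RNA per cell cannot be told apart. Every rise and fall by the test described here was seen in these same 2 arrays, and the part of macrophage RNA in them was not tested. Gpnmb, a glycoprotein of lipid-loaded and phagocytic macrophages, had 27216, 32331 and 1101 in the treated arrays, against 327, 764, 508 and 935 in the vehicle arrays (4.05 ± 0.83, adjusted p = 0.0115). The scavenger receptor Cd163 and the mannose receptor Mrc1 of tissue macrophages rose by 3.04 ± 0.71 and 2.95 ± 0.65, and Arg1, arginase of repair-type macrophages in rodents, by 3.13 ± 0.71. Cd68, a lysosomal protein of macrophages, had 4141, 5158 and 249.5 in the treated arrays, against 114, 186, 90.7 and 329 in the vehicle arrays (3.37 ± 0.74, adjusted p = 0.0126), so replicate 3 lay within the vehicle range. Complement C1q, made by macrophages, rose in its 3 chains, C1qa by 2.60 ± 0.58, C1qb by 2.29 ± 0.54 and C1qc by 2.23 ± 0.55. Of 24 chemokines and receptors 8 rose (33.3%), and 14 without replicate 3. Ccl2 and Ccl7, which draw monocytes through the receptor Ccr2, both rose by 4.99. Ccl7 had 8731, 8679 and 135 in the treated arrays, against 36.1, 67.7, 41.2 and 104 in the vehicle arrays (4.99 ± 0.94, adjusted p = 0.00852). The 2 treated animals with high Ccl7 were those with high Gpnmb. This was not particular to these genes, since all 855 genes called higher lay above every vehicle array in replicates 1 and 2.

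Of 4 tested neutrophil genes 2 rose (50%) and 4 did without replicate 3, with median shifts of 3.99, 4.13 and 0.00 in the treated arrays. S100a8 and S100a9, subunits of calprotectin that monocytes also make, rose by 3.38 ± 1.05 and 4.09 ± 0.96, while Lcn2 changed by 1.11 ± 1.13 (adjusted p = 0.56) and Csf3r by 1.26 ± 0.60 (0.17). Of 9 lymphocyte genes 1 rose and 1 fell. Lck, a T cell kinase, had 401, 289 and 254 in the treated arrays, against 167, 145, 178 and 105 in the vehicle arrays (1.02 ± 0.27, adjusted p = 0.024). Jchain, the joining chain of secreted antibodies, had 68.2, 15.3 and 11.2 in the treated arrays, against 102, 91.3, 88.6 and 152 in the vehicle arrays (-1.66 ± 0.47, adjusted p = 0.0304), and replicate 3 was the lowest array. In antigen processing 8 of 20 genes rose (40%), among them all 3 catalytic subunits special to the immunoproteasome. Psmb9 had 1861, 1741 and 520.3 in the treated arrays, against 442, 213, 318 and 243 in the vehicle arrays (1.98 ± 0.41, adjusted p = 0.0118). Psmb8 rose by 1.85 ± 0.46 and Psmb10 by 1.15 ± 0.30. Of 31 subunits of the ordinary proteasome 1 rose, Psmd14, a deubiquitinase of its lid, by 0.64 ± 0.20, and 8 rose without replicate 3. Among 31 lysosomal genes 12 rose (38.7%), and 19 without replicate 3. Ctsl, a cathepsin of macrophages and wasting muscle, had 29403, 30656 and 6014 in the treated arrays, against 3943, 7259, 5556 and 5792 in the vehicle arrays (1.67 ± 0.37, adjusted p = 0.0127). Lgmn, legumain, had 12407, 14043 and 1487 in the treated arrays, against 1109.6, 1706, 1354 and 1605 in the vehicle arrays (2.15 ± 0.46, adjusted p = 0.012). Replicate 3 lay within the vehicle range for both.

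Of 18 metalloproteinases and inhibitors 6 rose (33.3%), and 11 without replicate 3. Timp1, an inhibitor of metalloproteinases, had 22813, 24502 and 888 in the treated arrays, against 329, 333, 319.9 and 847 in the vehicle arrays (4.22 ± 0.80, adjusted p = 0.00864). Plaur, the urokinase receptor, had 764, 749 and 89.1 in the treated arrays, against 69.4, 14.8, 56.3 and 9.6 in the vehicle arrays (3.19 ± 0.75, adjusted p = 0.0154), and in both genes replicate 3 was just above the highest vehicle array. Mmp12, macrophage elastase, had 832, 5267 and 118 in the treated arrays, against 129, 125, 51.8 and 77.1 in the vehicle arrays (3.02 ± 0.92, adjusted p = 0.0396), with replicate 2 far above replicate 1. Of 47 matrix genes 6 rose (12.8%, against 7.32% of all genes tested), and 19 without replicate 3. Vcan, versican of loose early matrix, had 3973, 4868 and 358 in the treated arrays, against 263, 262, 324 and 459.6 in the vehicle arrays (2.54 ± 0.55, adjusted p = 0.012). Cthrc1, a secreted protein of activated fibroblasts, had 711, 1124 and 132 in the treated arrays, against 74.2, 16.1, 72.8 and 95.8 in the vehicle arrays (2.83 ± 0.73, adjusted p = 0.0221). Col1a1, the main fibrillar collagen, had 23939, 22276 and 31222 in the treated arrays, against 5309, 20704, 11372 and 65022 in the vehicle arrays (0.60 ± 0.81, adjusted p = 0.675), and the highest array was vehicle replicate 4. Leaving out vehicle replicate 4 gave 1084 probe sets higher and 554 lower in all.

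Cell-cycle genes rose in 19 of 44 tested members (43.2%) and fell in 0, with a median change of 1.56 and median shifts of 2.58, 2.14 and 0.07. Without replicate 3, 38 of the 44 rose, against 18.2% of all genes tested, and without vehicle replicate 1, 2 or 3 the count was 10, 8 or 7. Mki67, a protein of dividing nuclei, had 1612, 1151 and 52.7 in the treated arrays, against 52.4, 7.4, 1.9 and 87.8 in the vehicle arrays (3.76 ± 0.88, adjusted p = 0.0154). Replicate 3 lay among the vehicle arrays. Ect2, which starts cytokinesis, had 1409.8, 781 and 64.2 in the treated arrays, against 46.3, 5.0, 7.7 and 23.8 in the vehicle arrays (3.91 ± 0.70, adjusted p = 0.00852). Prc1, which bundles the spindle midzone, had 1563, 1148 and 124 in the treated arrays, against 18.1, 106, 22.1 and 36.9 in the vehicle arrays (3.66 ± 0.68, adjusted p = 0.00852). Cks2, a partner of cyclin-dependent kinases, had 2031, 1678 and 2.9 in the treated arrays, against 12.5, 17.0, 9.3 and 56.2 in the vehicle arrays (3.54 ± 1.03, adjusted p = 0.0343). Treated replicate 3 lay below the vehicle arrays for Cks2, and just above them for Ect2 and Prc1. The replication factor Pcna rose by 1.25 ± 0.27 and Mcm6, part of the replicative helicase, by 2.22 ± 0.64. Cdkn1a, the cyclin-dependent kinase inhibitor p21, had 6936, 7848 and 1192 in the treated arrays, against 744, 1952, 1748 and 1774 in the vehicle arrays (1.46 ± 0.46, adjusted p = 0.0441), with replicate 3 inside the vehicle range.

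Of 28 tested chaperones and disposal genes of the endoplasmic reticulum, 16 rose (57.1%, against 7.32% of all genes tested) and 0 fell. Without vehicle replicate 2, 10 rose. The list had a median change of 0.86 and median shifts of 1.30, 1.28 and 0.15. Such genes are known targets of the unfolded protein response, in which ATF6 and XBP1 act through the ER stress element. The element, searched as CCAAT, any 9 bases and CCACG on both strands in the 250 bases before to 50 after each gene's start (RefSeq, GRCr8), was present in 22 of 33469 promoters (0.0657%). Of the 28 list members 21 had a promoter in that table, and 7 of these held the element: Hspa5, Hsp90b1, Calr and Creld2, which rose, and Canx, Dnajc3 and Xbp1, which did not pass (0.61, 0.54 and 0.45). Of the 14 list members without it 8 rose. Stretches of the promoters of the 4 that rose are given 5′ to 3′ on the gene's strand, with each element in capitals, which on the opposite strand reads as CGTGG, any 9 bases and ATTGG; they lie at chr3:38452943-38453015 (plus strand), chr7:23012317-23012499 (minus), chr19:40213117-40213183 (plus) and chr7:121789209-121789287 (plus).
Hspa5: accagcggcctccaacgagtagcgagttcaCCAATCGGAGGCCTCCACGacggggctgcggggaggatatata
Hsp90b1: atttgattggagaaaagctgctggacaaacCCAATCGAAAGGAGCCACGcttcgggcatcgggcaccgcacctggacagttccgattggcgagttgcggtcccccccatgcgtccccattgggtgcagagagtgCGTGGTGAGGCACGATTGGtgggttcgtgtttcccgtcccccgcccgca
Calr: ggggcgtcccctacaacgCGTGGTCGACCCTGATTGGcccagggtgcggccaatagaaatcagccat
Creld2: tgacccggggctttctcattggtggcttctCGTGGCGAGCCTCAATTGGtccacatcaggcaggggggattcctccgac

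Hspa5, the chaperone BiP, had signals of 16660.5, 19134 and 7226 in the treated arrays, against 7100.1, 4899, 5861 and 5605 in the vehicle arrays (1.18 ± 0.30, adjusted p = 0.0219). Hsp90b1, the chaperone GRP94, whose printed stretch holds 2 elements, had 12053, 11404 and 3633 in the treated arrays, against 3656, 4010.4, 3377 and 3442 in the vehicle arrays (1.13 ± 0.30, adjusted p = 0.0255), with replicate 3 inside the vehicle range. The calcium-binding chaperone Calr had 11407, 10403 and 4695 in the treated arrays, against 4262, 3953, 4486 and 4885 in the vehicle arrays (0.91 ± 0.23, adjusted p = 0.0195). Creld2, a disulfide isomerase, had 2289, 2675 and 409 in the treated arrays, against 463, 247, 395 and 363 in the vehicle arrays (1.89 ± 0.49, adjusted p = 0.0228). In all 4 genes treated replicates 1 and 2 exceeded every vehicle array. Edem1, which takes misfolded glycoproteins to disposal and has no element in its window, had the largest change, with 2174, 2659 and 809 in the treated arrays, against 245, 208, 183 and 590.2 in the vehicle arrays (2.56 ± 0.52, adjusted p = 0.0115), and replicate 3 was above all vehicle arrays. Sdf2l1, Manf and Pdia4, further chaperones of the compartment, rose by 1.97 ± 0.43, 1.74 ± 0.38 and 1.84 ± 0.46. Beyond the list 7 tested genes held the element, of which 2 rose, 1 fell and 4, Birc5, Ero1b, Pan2 and Ppm1l, did not pass. Zfand2a, a stress protein that acts with the proteasome, and Hnrnpa3, an RNA-binding protein, rose by 2.17 and 0.83, and Ankmy2 fell by 0.62. No element in a window says only that these letters were not found there.

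Other stress programmes moved in fewer members. Of 29 genes of the integrated stress response 2 rose, Asns and Aldh1l2 (6.9%, near the 7.32% of all genes tested), and without replicate 3, 9 rose and 3 fell. Asns, asparagine synthetase, had 514, 951 and 248 in the treated arrays, against 91.0, 23.0, 83.6 and 200.3 in the vehicle arrays (2.45 ± 0.56, adjusted p = 0.014), and replicate 3 was above every vehicle array. Psat1, of serine synthesis, changed by 3.29 ± 1.07 (adjusted p = 0.0509), Atf3 by 1.39 ± 0.59 (0.123) and Ddit3 by -0.37 ± 0.27 (0.389). Atf3, a transcription factor of acute stress, had 1358, 1243 and 1186 in the treated arrays, against 673, 290.2, 649.5 and 397 in the vehicle arrays, so all treated arrays were above all vehicle arrays although the gene did not pass. Of 20 heat shock genes 0 rose and 0 fell (3 and 2 without replicate 3), with a median of 0.03, which was -0.06 after median centring. Among 25 genes of oxidative stress 6 rose (24%), and 13 without replicate 3. Mt2A, a metallothionein that binds zinc and copper, had 32109, 35011 and 1495 in the treated arrays, against 861, 1307, 1551 and 1679 in the vehicle arrays (3.17 ± 0.64, adjusted p = 0.0115). Hmox1, which breaks down haem, had 3411, 5088 and 242 in the treated arrays, against 214, 246, 141 and 199.5 in the vehicle arrays (2.98 ± 0.61, adjusted p = 0.0115). For both, replicates 1 and 2 lay far above vehicle and replicate 3 within the vehicle range. On the immediate early list, 9 of 29 genes rose (31%), 15 did so without replicate 3, and 1 fell. Egr2, a zinc finger factor, had 965, 764 and 387 in the treated arrays, against 101, 122, 91.9 and 144 in the vehicle arrays (2.42 ± 0.54, adjusted p = 0.0132), with all treated arrays above vehicle. Myc, a growth factor-response transcription factor, had 2042, 2233 and 199 in the treated arrays, against 189, 150.4, 58.0 and 227 in the vehicle arrays (2.69 ± 0.61, adjusted p = 0.0139). Nr4a1, a nuclear receptor raised by muscle activity, had 1415, 1248 and 6039.9 in the treated arrays, against 5635, 6265, 5232 and 7508 in the vehicle arrays (-1.46 ± 0.42, adjusted p = 0.033). In both, replicate 3 lay within the vehicle range. Id2, an inhibitor of differentiation factors, had 947, 1302 and 817 in the treated arrays, against 171, 332, 242 and 397 in the vehicle arrays (1.83 ± 0.54, adjusted p = 0.0363), with all 3 treated animals above vehicle.

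Fast-fibre genes fell in 8 of 21 tested members (38.1%, against 3.96% of all genes tested) and rose in 0, with a median change of -1.24 and median shifts of -1.27, -2.32 and -0.19, and 14 of the 21 had all treated arrays below all vehicle arrays (7.47% of all genes tested did). The number that fell was 17 without treated replicate 3, and 5, 4, 4 or 5 without vehicle replicate 1, 2, 3 or 4. Myh4 had 6249.9, 6458 and 54422 in the treated arrays, against 52705, 57455, 74564 and 52135 in the vehicle arrays (-2.17 ± 0.44, adjusted p = 0.0115). Actn3, the alpha-actinin of fast fibres, had 14874, 7640.4 and 71096 in the treated arrays, against 78561, 85388, 84832 and 81356 in the vehicle arrays (-2.04 ± 0.46, adjusted p = 0.0137). Replicate 3 lay within the vehicle range for Myh4 and below it for Actn3, by a shift of -0.21. Pvalb had 1712, 194 and 46209 in the treated arrays, against 43613, 73279.9, 61340.0 and 65176 in the vehicle arrays (-4.56 ± 0.96, adjusted p = 0.0118). Mss51, a mitochondrial protein of fast muscle, had 104, 10.5 and 14686 in the treated arrays, against 16763, 8278, 26385 and 17918 in the vehicle arrays (-5.56 ± 1.23, adjusted p = 0.0128). Replicate 2 was lower than replicate 1 in both, and without replicate 3 the changes were -6.65 and -8.28. Mylk2, the kinase of the myosin light chain in skeletal muscle, had 1171, 692 and 5632 in the treated arrays, against 8997, 16425, 10619.6 and 10988 in the vehicle arrays (-2.78 ± 0.74, adjusted p = 0.025), and all 3 treated arrays lay below vehicle. The other fast myosins did not pass. Myh1 had 13207, 7724 and 18998 in the treated arrays, against 21713, 7468, 14064 and 12417 in the vehicle arrays (-0.06 ± 0.43, adjusted p = 0.948). Myh2 had 29617, 10519.5 and 52688 in the treated arrays, against 57712, 42909, 37298 and 49653 in the vehicle arrays (-0.86 ± 1.24, adjusted p = 0.692). Of 17 slow-fibre genes 0 passed, with a median of -0.17 that was 0.23 after quantile normalization. Myh7, the slow myosin, had 47044, 32888 and 50099 in the treated arrays, against 84475, 60979, 31698 and 34671 in the vehicle arrays (-0.19 ± 2.09, adjusted p = 0.964), and the spread between vehicle animals was wider than any difference between groups.

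Genes of the triad, where the nerve signal releases calcium, fell in 5 of 30 members (16.7%, against 3.96% of all genes tested) and rose in 1. Without replicate 3, 16 fell and 3 rose. Cacna1s, the voltage sensor, had 2811, 1121 and 10272 in the treated arrays, against 15257, 14833, 13854 and 12024 in the vehicle arrays (-2.12 ± 0.68, adjusted p = 0.0485). Casq1, the calcium store of fast fibres, had 12297, 6085 and 46223 in the treated arrays, against 48362, 50736, 53441 and 52371 in the vehicle arrays (-1.76 ± 0.55, adjusted p = 0.0453). Replicate 3 was below all vehicle arrays for both. Jph2, which holds the junction together, had 1898, 1468 and 7858 in the treated arrays, against 7155, 11662, 8493 and 9219 in the vehicle arrays (-1.68 ± 0.54, adjusted p = 0.0481). Stim1, the sensor of store calcium, had 1083, 814 and 2448 in the treated arrays, against 3323, 4076, 3362 and 3154 in the vehicle arrays (-1.41 ± 0.30, adjusted p = 0.012). Replicate 3 was inside the vehicle range for Jph2 and below it for Stim1. The member that rose was Dysf, dysferlin, which reseals torn fibre membranes, with 7246, 8572 and 2993 in the treated arrays, against 2804, 2785, 2644 and 2818 in the vehicle arrays (1.04 ± 0.31, adjusted p = 0.0344). Its 4 vehicle signals spanned only 2644 to 2818, and each treated signal was higher. Atp1b2, a beta subunit of the sodium pump that fast fibres use, had 949, 526 and 7028 in the treated arrays, against 13002, 17725, 13273 and 14267 in the vehicle arrays (-3.23 ± 0.63, adjusted p = 0.0101), with replicate 3 between the groups. Fxyd5 and Fxyd2, small regulators of the pump found mainly outside muscle fibres, rose by 2.04 ± 0.63 and 1.82 ± 0.50.

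In energy metabolism, 8 pairs of related genes had a negative change in the muscle-type gene and a positive one in its more widely expressed partner. The pairs were drawn up after the values were seen, so they are a description, and levels of different probe sets were not compared. Of 32 genes of glycolysis and glycogen 9 fell (28.1%) and 3 rose (9.38%), or 21 and 5 without replicate 3, and the 3 that rose were Eno1, Pgam1 and Slc2a1. Eno1, the enolase of most tissues, had 10716, 12603 and 7296 in the treated arrays, against 4975, 4098, 4438 and 3892 in the vehicle arrays (1.20 ± 0.22, adjusted p = 0.00852), and all treated arrays exceeded vehicle. Eno3, the muscle enolase, changed by -1.24 ± 0.47 (adjusted p = 0.0882). Pgam1 had 10202, 10239 and 2774 in the treated arrays, against 2574, 2588, 2259 and 2699.5 in the vehicle arrays (1.39 ± 0.34, adjusted p = 0.0171), while Pgam2, the mutase of muscle, changed by -1.81 ± 0.75 (adjusted p = 0.113). Slc2a1, the glucose carrier GLUT1, had 1058, 1356 and 473 in the treated arrays, against 298, 183, 131 and 276 in the vehicle arrays (2.00 ± 0.59, adjusted p = 0.0358). The insulin-regulated carrier Slc2a4 changed by -2.08 ± 0.83 (adjusted p = 0.103), with replicate 3 at a shift of 0.12. Pfkm, muscle phosphofructokinase, had 9602, 3344 and 48259.5 in the treated arrays, against 54788, 53311, 53047 and 52937 in the vehicle arrays (-2.21 ± 0.71, adjusted p = 0.0489), while Pfkl, the form of liver, changed by 1.11 ± 0.39 (adjusted p = 0.0657). Ckb, brain-type creatine kinase, rose by 2.02 ± 0.62, and Ckm, the muscle form, changed by -0.63 ± 0.25 (adjusted p = 0.0952). The adenine nucleotide carrier Slc25a5 rose by 1.73 ± 0.39, and Slc25a4 of muscle and heart changed by -0.91 ± 0.40 (adjusted p = 0.133). Cox6a1 was the only one of 58 respiratory chain genes to pass, with 7682, 7022 and 4061 in the treated arrays, against 4345, 2550.5, 2939 and 3522 in the vehicle arrays (0.88 ± 0.27, adjusted p = 0.043), and its muscle form Cox6a2 changed by -0.60 ± 0.47 (adjusted p = 0.428).

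**Figure D4:**
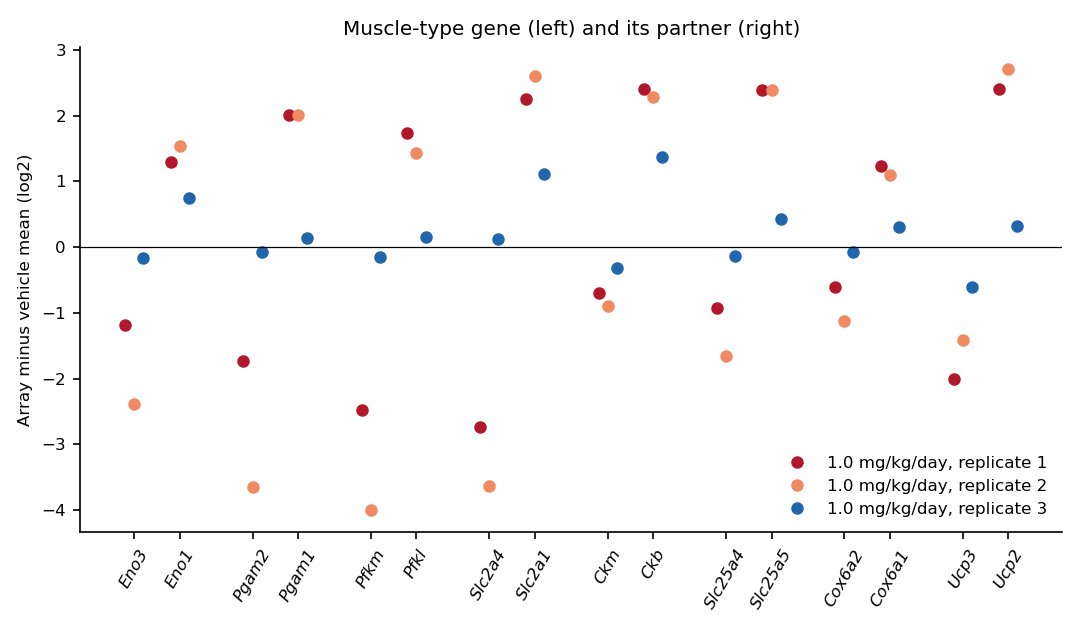
Shift from the vehicle mean (log2) of the 3 arrays at 1.0 mg/kg/day for 8 pairs of related genes, the muscle-type gene on the left of each pair and its partner on the right. In replicates 1 and 2 each muscle-type gene lies below 0 and each partner above 0; replicate 3 lies nearer to 0 in most genes.

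The largest falls of the glycolysis list were Gpd1, Slc16a3 and Pfkfb1. Gpd1, of the glycerol phosphate shuttle, had 2068, 414 and 22663 in the treated arrays, against 20895, 25131, 26895 and 26808 in the vehicle arrays (-3.19 ± 0.76, adjusted p = 0.0165). Slc16a3, the lactate exporter of fast fibres, had 750.0, 546 and 16453 in the treated arrays, against 16501, 8822, 13316 and 12602 in the vehicle arrays (-2.71 ± 0.82, adjusted p = 0.0397). Replicate 3 lay inside the vehicle range for both. Prkag3, the fast-fibre subunit of AMP kinase, had 376, 388 and 3244 in the treated arrays, against 3316, 7382, 4919 and 10472 in the vehicle arrays (-2.91 ± 0.85, adjusted p = 0.0351). The 58 respiratory chain genes had a median change of -0.70 with median shifts of -0.79, -1.45 and 0.08, and 0 of them fell by the test, against 32 without replicate 3, when 12.9% of all genes tested fell. Ppargc1a, a regulator of mitochondrial genes, had 99.7, 199.9 and 864 in the treated arrays, against 780.1, 871, 1196 and 741 in the vehicle arrays (-1.70 ± 0.59, adjusted p = 0.0643). Of 34 genes of fatty acid oxidation and uncoupling 0 fell (8 without replicate 3) and 1 rose, Ucp2, with 2830.4, 3516 and 665 in the treated arrays, against 541, 672, 389.5 and 544 in the vehicle arrays (1.81 ± 0.44, adjusted p = 0.017), while Ucp3, the form of muscle, changed by -1.34 ± 0.66 (adjusted p = 0.183).

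Of 27 atrophy genes 5 rose (18.5%, against 7.32% of all genes tested) and 1 fell, and without replicate 3 the counts were 8 and 2. The ubiquitin ligases Trim63 and Fbxo32, used as marks of atrophy, changed by 0.82 ± 0.61 (adjusted p = 0.397) and 0.22 ± 0.56 (0.837), while Fbxo30, a ligase of the BMP pathway in muscle, had 592, 799.5 and 356 in the treated arrays, against 228, 243, 343 and 295 in the vehicle arrays (0.98 ± 0.25, adjusted p = 0.0218). Of 30 genes of myogenesis and regeneration 4 rose (13.3%, and 11 of 30 without replicate 3), Vim, Vcam1, Id2 and Cdkn1a, which several cell types share. Myog, which drives fusion of myoblasts, had 4805, 8332 and 1494 in the treated arrays, against 2069, 1204, 1448 and 1112 in the vehicle arrays (1.46 ± 0.52, adjusted p = 0.0712). Myod1, which commits cells to the muscle lineage, had 1098, 1560.5 and 2201 in the treated arrays, against 2925, 4189.7, 5666 and 3673 in the vehicle arrays (-1.35 ± 0.55, adjusted p = 0.11). All 3 treated arrays were below all 4 vehicle arrays for Myod1, and replicate 3 was inside the vehicle range for Myog. The embryonic myosin Myh3 had 121, 2487 and 851 in the treated arrays, against 450.3, 319, 182 and 451 in the vehicle arrays (0.95 ± 1.13, adjusted p = 0.628), with replicate 2 highest and replicate 1 lowest. Runx1, a transcription factor that denervated muscle raises, had 5391, 4814 and 749 in the treated arrays, against 592, 625, 599.7 and 715 in the vehicle arrays (2.07 ± 0.44, adjusted p = 0.0118). Chrna1, the acetylcholine receptor alpha subunit, had 1032, 1686 and 165 in the treated arrays, against 665, 339, 254 and 114 in the vehicle arrays (1.19 ± 0.71, adjusted p = 0.286), and replicate 3 lay inside the vehicle range. Ankrd1, a stretch-response protein of the sarcomere, had 12548, 15941 and 1073 in the treated arrays, against 500.0, 187, 2373 and 416 in the vehicle arrays (3.40 ± 0.85, adjusted p = 0.0195), where vehicle replicate 3 exceeded treated replicate 3. Myof, myoferlin of fusing myoblasts, rose by 2.17 ± 0.58.

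Treated replicate 3 had features of its own. By a gap of more than 1 log2 unit to the nearest of the other 6 arrays, 32 of 11684 tested genes were higher and 31 lower in it. No such count was made for the other arrays, so these counts alone do not set it apart. Several of the lower genes, though not all, had signals below the offset in it, where a log2 gap depends on the offset. Mbp, myelin basic protein, had 309, 1552 and 11007 in the treated arrays, against 727, 175, 669 and 283 in the vehicle arrays (2.12 ± 1.04, adjusted p = 0.183). Pmp22, a protein of peripheral myelin, had 7101, 9528 and 26395 in the treated arrays, against 3705, 2832, 3175 and 5716 in the vehicle arrays (1.70 ± 0.60, adjusted p = 0.0684). Replicate 3 was the highest of the 7 arrays in both. Prx, periaxin of Schwann cells, had 201, 332 and 2278 in the treated arrays, against 507, 269.9, 328 and 203 in the vehicle arrays (0.78 ± 0.68, adjusted p = 0.484). Mal, of myelin membranes, had 58.4, 238 and 1774 in the treated arrays, against 179, 113, 210.0 and 208 in the vehicle arrays. The 8 tested Schwann cell and nerve markers had median shifts of -0.21, 0.59 and 2.29, and 0 of 8 passed (1 rose without replicate 3). Apod, a lipid carrier of nerve and fibroblasts, rose, with 610.0, 1105 and 4918 in the treated arrays, against 278, 187, 229 and 131 in the vehicle arrays (2.83 ± 0.89, adjusted p = 0.0448). The 15 fat cell markers had median shifts of -0.61, -0.34 and 0.75. The part of nerve or fat RNA in the values of this array was not tested.

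Genes that changed at the same dose in exercised rats shifted by the median in unexercised treated replicates 1 and 2 as well, and little in replicate 3; the exercised arrays chose these genes, so their own shifts are a description. The interaction, the change at 1.0 mg/kg/day in exercised minus unexercised rats, passed for 0 of 21729 probe sets (0%) by limma, with 1375 (6.33%) at an unadjusted p under 0.05, and for 1974 with limma's array weights. In exercised rats at 1.0 mg/kg/day, against exercised vehicle rats, 3240 genes rose (27.7%) and 2558 fell (21.9%). For the 3240 genes the median shifts were 1.07, 1.16 and 0.15 in unexercised treated replicates 1 to 3, and 1.09, 1.69, 1.17 and 1.72 in the 4 exercised treated arrays. For the 2558 genes they were -0.80, -0.94 and -0.08 in the unexercised and -0.79, -1.40, -0.81 and -1.40 in the exercised arrays. Dysf rose without exercise and changed by 0.14 ± 0.28 (adjusted p = 0.709) in exercised rats, an interaction of -0.90 ± 0.42 with unadjusted p = 0.0398 and adjusted p = 0.705. The difference did not pass the test.

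At lower doses without exercise, 1 array shifted in the same direction as treated replicates 1 and 2 in several lists, but not in all. The shifts are from the same 4 vehicle arrays. The macrophage list had median shifts of 0.06, 0.12, 1.92 and 0.01 in the 4 arrays at 0.1 mg/kg/day, and from -0.51 to 0.22 in the 4 at 0.5 mg/kg/day. The fast-fibre list had -0.32, -0.05, -1.62 and 0.14 at 0.1 mg/kg/day and -0.24 to 0.08 at 0.5 mg/kg/day. Spp1 was 1648 in replicate 3 at 0.1 mg/kg/day, against 60.5 to 332.9 in the other 3 arrays of that dose, and Gpnmb was 4807 in it. Schwann cell markers had a median shift of 3.06 in it. Fat cell markers had 3.00, against -0.61 and -0.34 in replicates 1 and 2 at 1.0 mg/kg/day. The proteasome list had -0.95 in it, against 0.22 and 0.46, and the cell-cycle list 0.46, against 2.58 and 2.14. The 5′ to 3′ ratios of this array at 0.1 mg/kg/day, 0.116 for actin and 0.475 for Gapdh, were the lowest of the 45 arrays. The labels were used as given, and an exchange of samples was not tested. The array entered the comparison only through the spread, the offset, the filter and the choice of each gene's probe set. Leaving it out of the fit alone was an alternative added after the data were seen. It gave 2276 probe sets higher and 1837 lower at 1.0 mg/kg/day, against 1238 (5.7%) and 827 (3.81%) with the array.

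**Figure D5:**
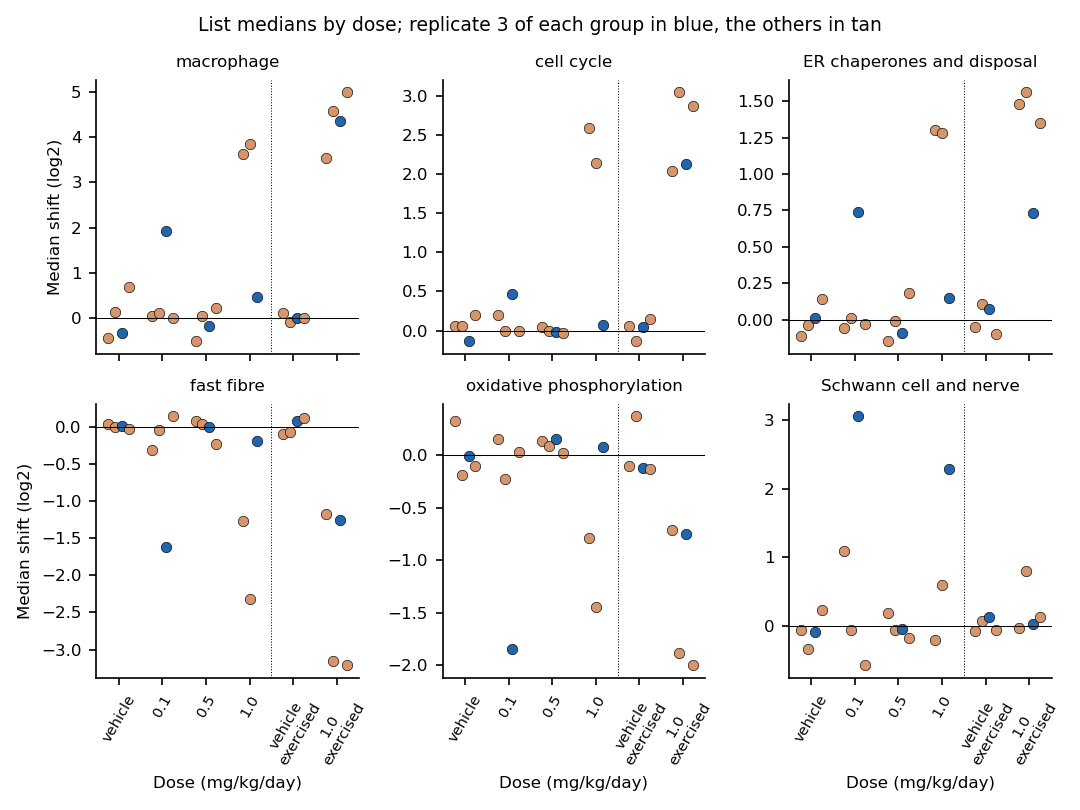
Median shift (log2) of 6 gene lists in every array of unexercised gastrocnemius by dose, and in exercised gastrocnemius at 0 and 1.0 mg/kg/day (right of the dotted line), each from the vehicle mean of the same exercise state. Replicate 3 at 1.0 mg/kg/day lies near vehicle in the first 5 lists, and replicate 3 at 0.1 mg/kg/day lies on the same side of 0 as replicates 1 and 2 at 1.0 mg/kg/day; both lie highest for Schwann cell genes.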

How the data were processed

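RNA from rat muscle was hybridized to 45 Affymetrix Rat 230 2.0 arrays in 12 groups, with 3 to 4 biological replicates each per the series' design text. The deposited values are linear intensity signals, 1 per probe set, which the authors computed with MAS5, as the submitters' processing notes record; its version and scaling were not given in the sources used here. The arrays' 2% trimmed mean signal lay between 600.203 and 600.308, so the deposited arrays had been scaled to a common level, and precision is limited by the number of arrays.

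Of 31099 probe sets, 57 controls were left out. Signals were taken as log2(signal + 12.4), where 12.4 is the 10th percentile. Probe sets with a mean over all 45 arrays at or above the 30th percentile (log2 6.03) were tested, which left 21729. This mean includes the treated arrays, so the filter can keep a gene because it was high in them. limma 3.58.1 in R 4.3.3 (lmFit and eBayes with a trend) was fitted over the 30 gastrocnemius arrays in 8 groups, with Benjamini-Hochberg adjustment over all 21729. GEO's platform annotation gave 1 symbol to 20826 of the probe sets used, several to 436 and none to 9780, and genes were named from single symbols only. Each gene was represented by the tested probe set of highest mean signal (45 arrays), which gave 11684 genes. Gene lists (38 of pathways, 11 of cell type markers) and members were chosen with earlier results of these data known. Results of 1 list are not reported here. Genes to name were the 12 largest rises and falls without overlap between the groups, the 10 each way with the largest shift in the treated array that moved least, up to 6 called members per list, a short fixed list, and the largest interactions past the threshold. The rule gave 195 genes. The text names 185 genes, 48 of them outside the rule and chosen after their values were seen, such as partners of a pair, list members that did not pass and genes high in 1 array. Same-numbered arrays were not paired, since their deviations correlated at -0.012, 0.015 and 0.018. The fit was run on simulated data with an equal shift in all 3 treated arrays, unlike these data, where replicate 3 moved less. It recovered 22%, 76% and 92% of rises of 1, 2 and 3 log2 units, and 4.32% of its calls were false. These shares do not carry over to the calls given here. The alternatives were other offsets, filters, scalings, array sets and array weights, a replicate block, the mean over a gene's probe sets, and leaving out each array. Promoter windows came from RefSeq (GRCr8).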

Additional observations from a re-analysis of the deposited data

Results flagged for a closer look

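In the 4 vehicle arrays, 13 of 185 named genes had 1 array far from the other 3, by a gap to the nearest array over the whole range above 0.829. Chance marks about 5% of genes. Vehicle replicate 4 was highest for Timp1 (0.960, a signal of 847 against 319.9 to 333 in the others), S100a10 (0.892), Adipoq (0.872) and S100a6 (0.859), and lowest for Idi1 (0.938, 162 against 338 to 354) and Fbxo32 (0.887). Timp1 and Idi1 rose in the treated animals, and the treated signals of both lay above all 4 vehicle arrays. Vehicle replicate 2 was lowest for Dhcr7 (0.881), Lss (0.859), Ucp3 (0.855) and Pfkl (0.850). Dhcr7 and Lss, late enzymes of sterol synthesis, had treated signals above every vehicle array and did not pass. Vehicle replicate 1 was lowest for Cdkn1a (0.885, 744 against 1748 to 1952) and Akr1b8 (0.848, 20.6 against 223 to 322). Vehicle replicate 3 was highest for Sdf2l1 (0.835), a chaperone of the endoplasmic reticulum, at 495 against 429.8 to 440.0.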

How the results depend on the processing

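The fit reported called 1238 probe sets higher and 827 lower, and the counts were 1907 and 1443 when soleus was added to the fit (45 arrays), 0 and 0 on the 7 arrays alone, and 5489 and 5194 with limma's array weights, which gave treated replicates 1, 2 and 3 weights of 6.77, 0.96 and 0.19. Leaving out unexercised replicate 3 at 0.1 mg/kg/day, chosen after seeing the data, gave 2276 and 1837. Leaving out each of the 7 arrays in turn gave 1 to 3144 higher and 1 to 2679 lower. The interaction called 0 probe sets in the fit reported and 1974 with array weights. Offsets of 1 and 50, no filter, a filter at the 50th percentile, median centring and quantile normalization kept both counts within 1.5 times. The numbers of replicates did not pair the samples, and with the replicate block 978 probe sets were higher and 563 lower, and 119 of the 138 called genes that the text names passed. Of these 138, 137 passed with array weights, 128 with the mean over a gene's probe sets, 123 without a filter, 131 after quantile normalization, 2 without treated replicate 1, 2 without treated replicate 2, 136 without treated replicate 3 and 81 to 115 without 1 vehicle array. None of the 138 changed direction under any alternative run. Of the genes that did not pass, 8 changed sign, and the cause was not tested. With array weights Adipoq was -0.94, Mal -1.01, Myh1 0.03, Myh3 -0.70 and Prx -0.42. After quantile normalization Myh1 was 0.10 and Myh7 0.26, and as a mean over probe sets Myh1 was 0.20 and Myh7 0.03. With the replicate block Tnnt1 was -0.42. Over the fits without 1 array, Adipoq ran from -0.93 to 1.99, Mal from -0.48 to 1.85, Myh1 from -0.36 to 0.29, Myh3 from -0.01 to 2.10, Myh7 from -0.40 to 0.07, Prx from -0.25 to 1.46, Srebf2 from -0.04 to 0.42 and Tnnt1 from -0.14 to 0.66. Precision is limited by the 3 treated arrays, and for signals near the offset the change depends on it.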

Other observations

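Of 20 interferon genes, none of them on the macrophage list, 7 rose (35%, against 7.32% of all genes tested, and 14 without treated replicate 3) and 0 fell, with median shifts of 1.32, 1.76 and 0.08 in the 3 treated arrays. Ifitm1, an interferon-induced membrane protein, had 10445, 10588 and 984 in the treated arrays, against 360.1, 449.5, 428 and 611 in the vehicle arrays (3.36 ± 0.61, adjusted p = 0.00852 by limma), with all treated arrays above vehicle. Of 17 complement genes 8 rose (47.1%), of which Itgb2 is also a macrophage marker and the 3 C1q chains are made by macrophages. The receptors C5ar1 and C3ar1, for the complement peptides that draw leukocytes, rose by 2.28 ± 0.49 and 2.41 ± 0.64. Of 11 S100 genes 6 rose (54.5%) and 1 fell. S100a6 and S100a10, small calcium-binding proteins of many cell types, rose by 1.86 ± 0.53 and 2.17 ± 0.49. Ifi30, a thiol reductase of antigen-presenting cells, had 7629, 6752 and 1140.5 in the treated arrays, against 821, 818, 719.8 and 1101 in the vehicle arrays (2.17 ± 0.41, adjusted p = 0.00864 by limma), and replicate 3 was just above the highest vehicle array.

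Among the remaining lists, 0 of 17 genes of the TCA cycle passed with all arrays and 12 fell without treated replicate 3 (12.9% of all genes tested did), with median shifts of -0.87, -1.55 and 0.14. Of 19 ribosomal protein genes 2 rose (10.5%, against 7.32% of all genes tested), Rpl3 by 1.70 ± 0.43 and Rps3 by 0.83 ± 0.17. Without treated replicate 3, 8 of them rose, when 18.2% of all genes tested did. Mstn, myostatin, the inhibitor of muscle growth, had 28.2, 4.5 and 187 in the treated arrays, against 60, 449, 676 and 166 in the vehicle arrays (-2.30 ± 0.90, adjusted p = 0.0973 by limma), so it did not pass and the vehicle arrays were wide apart. Pdk4, the kinase that shuts off pyruvate dehydrogenase, had 25804, 24715 and 9794 in the treated arrays, against 21519, 2571, 8589 and 11604 in the vehicle arrays (1.09 ± 0.62, adjusted p = 0.255 by limma), with vehicle replicate 2 lowest. Lipe, the hormone-sensitive lipase of fat cells, had 344, 354 and 624 in the treated arrays, against 1207, 705, 1151 and 1024 in the vehicle arrays (-1.22 ± 0.26, adjusted p = 0.0118 by limma), with all treated arrays below all vehicle arrays. Of the marker lists, 0 of 4 erythroid and 0 of 7 mast cell genes passed. Of 14 endothelial genes 1 rose (7.14%), and of 13 smooth muscle genes 1 fell (7.69%). Of 12 fibroblast genes 2 rose (16.7%), of 8 satellite cell genes 2 rose (25%), and of 15 fat cell genes 1 fell (6.67%). Without treated replicate 3, 2 endothelial, 6 fibroblast and 3 satellite cell genes rose, and 3 smooth muscle and 3 fat cell genes fell. Of all genes tested 7.32% rose and 3.96% fell, or 18.2% and 12.9% without treated replicate 3.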
